A study of Mus musculus with 16 samples.

Results

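Acod1 and 4 other enzyme genes, Nos2, Arg1, Arg2 and Ptgs2, were followed across kidneys of 4 mouse genotypes measured on microarrays. The 5 genes, of 22911 with a named probe, were selected because Acod1 had been seen to rise in these data. Acod1 was chosen by its log2 signal on the 16 arrays. The Fcgr2b-ko against wild-type comparison is treated below as the one that chose it. The other arrays may also have entered that choice. Each gene was measured by 1 probe, found through its transcript accession. All values below are log2 signals relative to the same array's 75th percentile, so that 0 stands for the signal at that percentile. The scanner software marked each spot as well above background or not, and a probe was tested where at least 4 of the 16 arrays were well above background. By that filter 4 of the 5 genes were tested, and Arg1 was not. Acod1 passed it only through the 2 groups in which it was high, and the 4 Fcgr2b-ko arrays alone were enough to pass it.

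The series asked what STING, the adaptor of cytosolic DNA sensing, contributes to lupus in mice that lack Fcgr2b, the inhibitory Fc gamma receptor. Whole kidneys of mice 6 months old were profiled on 16 one-colour arrays, 4 for each genotype. The wild-type and the Sting-ko mice were C57BL/6. The Fcgr2b-ko mice, which the labels also call lupus mice, and the double-deficient mice, named Fcgr2b-ko, Sting-ko in the labels and Fcgr2b-ko.Sting-ko here, were on a mixed 129/C57BL/6 background. Every comparison of an Fcgr2b-deficient with an Fcgr2b-sufficient group was therefore also a comparison of backgrounds, and the 2 cannot be told apart. The Sting-ko allele is the Goldenticket allele, a functional knockout. A supplementary legend of the study gives the Fcgr2b-deficient kidneys of its array heat map as heterozygous for that allele. The labels of these arrays name Fcgr2b-ko alone, so the STING genotype of these 4 arrays is uncertain. The labels do not say whether each array was a separate animal. The legends of the study count mice in each group for its kidney arrays, so that each array was taken as 1 mouse.

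Acod1 encodes the mitochondrial enzyme that makes itaconate from cis-aconitate, an intermediate of the tricarboxylic acid cycle. It is scarce in resting tissue and strongly induced in macrophages and other myeloid cells by microbial ligands and interferons. Itaconate inhibits succinate dehydrogenase and modifies KEAP1, the sensor that holds NRF2 in check. Nos2 encodes inducible nitric oxide synthase, which turns arginine into nitric oxide and citrulline, and Arg1 and Arg2 encode the cytosolic and the mitochondrial arginase, which turn arginine into ornithine and urea. Ptgs2 encodes cyclooxygenase-2, the inducible enzyme of prostaglandin synthesis. Nos2 and Arg1 are commonly read as marks of classical and alternative macrophage activation, and Arg2 and Ptgs2 are also made by kidney cells that are not macrophages.

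Acod1 was the member that separated the genotypes, and 2 other genes, Clec4e and Fpr1, followed it most closely over the arrays. Their sequences just upstream of the transcription start are therefore shown, as the 250 bases before the start in RefSeq on build GRCm38.p6, 5′ to 3′ on the gene's strand. They lie at chr14:103046762-103047011 on the plus strand for Acod1, at chr6:123289872-123290121 on the minus strand for Clec4e, and at chr17:17883940-17884189 on the minus strand for Fpr1. Capitals mark a match on either strand to the kappaB letters GGNNNTTCC, the AP-1 letters TGANTCA, the GAS letters TTCNNNGAA or the ISRE core letters GAAANNGAA.
Acod1: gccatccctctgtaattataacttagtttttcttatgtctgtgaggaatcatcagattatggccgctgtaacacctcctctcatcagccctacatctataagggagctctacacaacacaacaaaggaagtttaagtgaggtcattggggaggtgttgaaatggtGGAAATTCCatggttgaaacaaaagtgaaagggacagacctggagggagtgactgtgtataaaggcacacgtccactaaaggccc
Clec4e: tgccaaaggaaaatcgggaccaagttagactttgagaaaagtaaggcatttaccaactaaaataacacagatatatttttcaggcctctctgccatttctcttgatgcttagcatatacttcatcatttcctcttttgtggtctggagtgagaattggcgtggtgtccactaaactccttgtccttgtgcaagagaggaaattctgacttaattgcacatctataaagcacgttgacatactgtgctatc
Fpr1: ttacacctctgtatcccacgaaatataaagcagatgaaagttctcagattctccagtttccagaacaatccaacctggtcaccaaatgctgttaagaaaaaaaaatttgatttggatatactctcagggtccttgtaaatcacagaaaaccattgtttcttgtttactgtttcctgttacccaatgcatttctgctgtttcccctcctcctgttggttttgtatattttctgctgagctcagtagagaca
The Acod1 sequence held 1 match, GGAAATTCC, whose first base lay 85 bases before the start, and no match to the other 3 sets of letters. The kappaB letters stood in 15.7% of the 32851 sequences of the same length in the table, the AP-1 letters in 6.75%, the GAS letters in 7.02% and the ISRE core letters in 7.13%. The Clec4e and Fpr1 sequences held none of the 4. Of the 10 genes most like Acod1, 1 had a kappaB match (Il1rn), 1 an AP-1 match (Il1rn), 2 a GAS match (Cd300e and Ifi202b) and 3 an ISRE core match (Ear2, Ear10 and Rnase2a). The same window of Ptgs2 held none, and the table had no entry for Nos2, Arg1 or Arg2. A match describes letters and not a bound site, and these windows do not reach distal elements.

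Across the series, 28441 to 35564 of 56605 probes were well above background on an array, none of the spots reached saturation, and precision is set by how many arrays there are. Fcgr2b, the targeted gene, is read by 2 probes, both well above background on every array. On the brighter probe the wild-type arrays lay between 0.60 and 1.63, the Fcgr2b-ko arrays between -0.53 and 0.21, the Fcgr2b-ko.Sting-ko arrays between -0.93 and -0.0002, and the Sting-ko arrays between -0.66 and 0.997. The Fcgr2b-ko.Sting-ko and Sting-ko arrays thus overlapped on this probe. Sting1 lay between -1.92 and 2.20 on the 16 arrays, and its transcript does not check a point allele. All 12 kidney epithelial markers, among them Umod and Slc34a1, were well above background on every array.

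Acod1 signal stood out in both Fcgr2b-deficient groups and in neither of the others. It was well above background on all 8 Fcgr2b-deficient arrays and on none of the 8 wild-type and Sting-ko arrays. In the wild-type kidneys its log2 signal was -6.78, -7.44, -7.12 and -7.85 in replicates 1 to 4, all of them background readings. In the Sting-ko kidneys it was -7.68, -6.23, -7.22 and -7.19, again all background readings. In the Fcgr2b-ko kidneys it was 1.51, -3.26, -2.67 and -0.32. Replicates 2 and 3 were close to the double-deficient kidneys, whereas replicates 1 and 4 were far brighter, and the group spanned 27.2-fold. In the Fcgr2b-ko.Sting-ko kidneys it was -3.93, -3.03, -2.62 and -3.26, a span of 2.49-fold. The dimmest Fcgr2b-deficient array exceeded the brightest of the other 8 by 2.29 on the log2 scale.

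**Figure D1:**
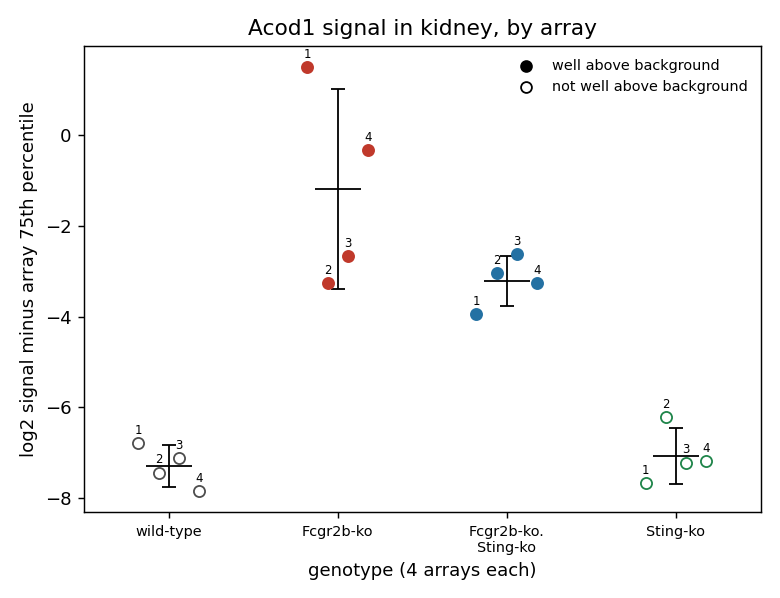
Acod1 signal (log2, relative to each array's 75th percentile) in every kidney array, by genotype, with replicate numbers. Filled points are well above background and open points are not, and bars give the mean and SD of 4 arrays. All 8 Fcgr2b-deficient arrays are filled and the other 8 are open, and Fcgr2b-ko replicates 1 and 4 lie above every other array.

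The comparison treated as the one that chose Acod1 is given as a description only. The Fcgr2b-ko mean was -1.18 ± 2.20 (SD, n = 4) and the wild-type mean -7.30 ± 0.46 (SD, n = 4). As the wild-type kidneys gave only background readings, the Fcgr2b-ko mean was at least 17.3-fold higher. That bound sets, on each wild-type array, the lowest signal of any probe well above background in place of the dimmer reading of Acod1. The bound moved with single arrays: it was 9.29-fold without Fcgr2b-ko replicate 1 and 28.0-fold without replicate 2. It holds for the processed signal only, as the difference with the normexp correction, 2.68 on the log2 scale, was under the 4.11 of the bound. In this comparison 16 of 35628 tested probes, 0.0449% of them, were called by limma at a Benjamini-Hochberg adjusted p below 0.05 and at least 2-fold. Acod1 was the only member among them, and nothing is read from that count.

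Whether the loss of Fcgr2b went with Acod1 signal where STING was also deficient was asked between the other 8 arrays. Their means share no array with the comparison above, but these 8 arrays may also have entered the choice of Acod1. The limma SE, interval and p below pool the spread of all 16 arrays, the Fcgr2b-ko arrays included. The Fcgr2b-ko.Sting-ko mean was -3.21 ± 0.55 (SD, n = 4) and the Sting-ko mean -7.08 ± 0.61 (SD, n = 4), and all 16 pairs of arrays had the double-deficient kidney higher. The difference of the measured means was 3.87 on the log2 scale (SE 0.77, 95% interval 2.23 to 5.51), and the bound against background was at least 4.14-fold. The two-sided exact permutation test of these 8 arrays gave p = 0.0286, the smallest p that 4 arrays against 4 allow. It is the p of a gene selected with results of these data known, whose 4 Sting-ko readings were all background. The double-deficient arrays were also among those through which Acod1 passed the filter. No conclusion is drawn from this p. In limma the unadjusted p was 0.000143, the 4th smallest of 35628 probes, but the Benjamini-Hochberg adjusted p was 0.89, and Acod1 was not called. No probe was called in this comparison (0% of 35628, against 1092 at an unadjusted p below 0.05). Groups that did not overlap, with the double-deficient kidneys higher, were seen for 1.41% of the tested probes. The on-off pattern of Acod1, well above background on 4 of 4 double-deficient and 0 of 4 Sting-ko arrays, was shared by 8 probes, 0.0225% of those tested. The named ones among the 8 were Acod1, Clec4e, Fpr1 and Mesp2, and Acod1 and Fpr1 alone also had it between the Fcgr2b-ko and wild-type arrays. The reverse pattern was seen for 5 probes.

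The size of this difference depended on the background correction. It was 1.04 with the normexp correction, under the 2.05 that the bound gives on the log2 scale, and between 3.67 and 4.15 when single arrays were left out. The adjusted p reached 0.0385 when limma was fitted on these 8 arrays alone, and Acod1 was then called. The limits given above for the exact permutation p hold for this call too, and no conclusion is drawn from it. Within slide 1, with 1 double-deficient and 2 Sting-ko arrays, the difference was 3.02, and within slide 2, with 3 and 2 arrays, it was 4.24.

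The remaining contrasts for Acod1 share arrays with the one treated as having chosen it and are given as values. The double-deficient mean was lower than the Fcgr2b-ko mean by 2.03 on the log2 scale, with overlapping groups: 3 of 16 pairs of arrays had the double-deficient kidney higher. The difference was -1.13 without Fcgr2b-ko replicate 1 and -2.72 without Fcgr2b-ko replicate 2. Within slide 1 the double-deficient array was 3.25 below the mean of the 3 Fcgr2b-ko arrays, and within slide 2 the 3 double-deficient arrays averaged 0.30 below the single Fcgr2b-ko array. Fcgr2b-ko replicates 1 and 4 were both on slide 1. The order of the group means was Fcgr2b-ko, Fcgr2b-ko.Sting-ko, Sting-ko and wild-type, and the first pair and the last pair each overlapped.

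**Figure D2:**
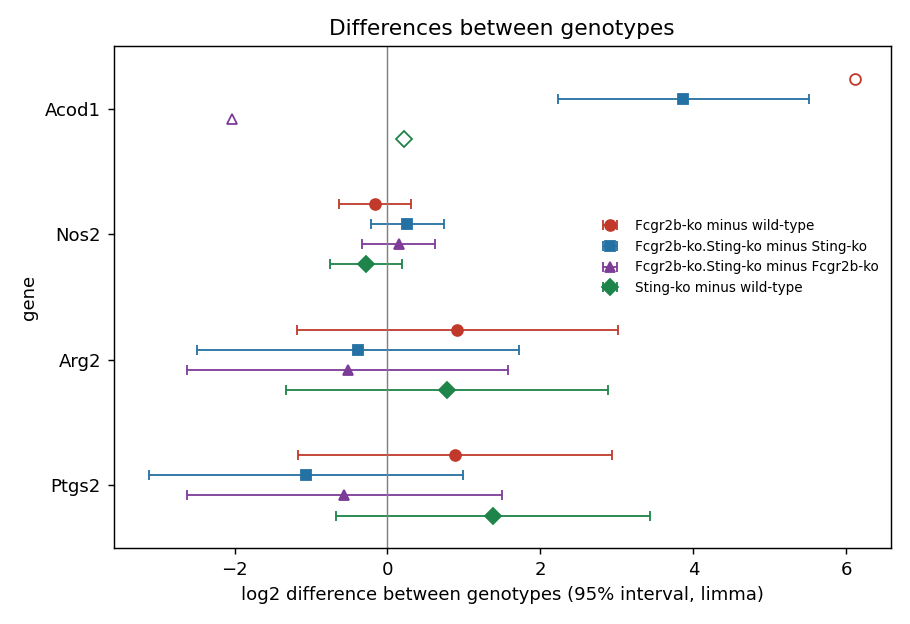
Differences between genotypes in log2 signal for the 4 tested genes, with limma's 95% interval. Open symbols for Acod1 are the contrast treated as having chosen it and those sharing its arrays, and carry no interval. The Acod1 difference between the Fcgr2b-ko.Sting-ko and Sting-ko kidneys lies at 3.87, and the intervals of Nos2, Arg2 and Ptgs2 all include 0. That Acod1 point is filled, but its arrays may also have entered the choice of the gene. Its Sting-ko readings were background and its interval pools the spread of all arrays, so no conclusion is drawn from it.

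Nos2 signal was nearly level across the genotypes. It was well above background on all 16 arrays, between -0.87 and 0.02, a span of 1.85-fold. Only 5.41% of the tested probes had a smaller SD over the 16 arrays. In the wild-type kidneys it was -0.31, -0.36, -0.20 and -0.48. Fcgr2b-ko replicates gave -0.85, -0.07, -0.42 and -0.67, so that the 2 arrays with the most Acod1 signal, replicates 1 and 4, had the least Nos2 signal of their group. The double-deficient kidneys gave -0.44, 0.02, -0.65 and -0.34, and the Sting-ko kidneys -0.40, -0.61, -0.57 and -0.87. All groups overlapped. The Fcgr2b-ko minus wild-type difference was -0.16 (SE 0.22, 95% interval -0.64 to 0.31), and the Fcgr2b-ko.Sting-ko minus Sting-ko difference was 0.26 (SE 0.22, 95% interval -0.21 to 0.73). These intervals leave out a 2-fold difference in either direction. The largest difference, Sting-ko minus wild-type, was -0.28 (95% interval -0.75 to 0.20, exact permutation p = 0.0571).

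Arg1 was not well above background on 15 of the 16 arrays, and no comparison was made. The exception was Sting-ko replicate 1, at -4.90, and the other 15 readings lay between -7.85 and -5.74. Fcgr2b-ko replicate 1, which had the most Acod1 signal, gave -5.74 without being well above background.

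Arg2 was well above background on all 16 arrays, and its spread within each genotype exceeded every difference between them. In the wild-type kidneys it was -2.25, -2.71, 0.30 and -0.28. The Fcgr2b-ko kidneys gave 0.02, 1.003, -2.67 and 0.36. It was 0.78, -2.02, 0.53 and -2.66 in the Fcgr2b-ko.Sting-ko kidneys, and in the Sting-ko kidneys 0.74, 0.38, -2.19 and -0.77. Every genotype thus held 1 or 2 low arrays beside higher ones. The Fcgr2b-ko minus wild-type difference was 0.92 (SE 0.99, 95% interval -1.19 to 3.02, limma unadjusted p = 0.368), and the Fcgr2b-ko.Sting-ko minus Sting-ko difference -0.38 (SE 0.99, 95% interval -2.49 to 1.72, limma unadjusted p = 0.703). Within slide 1 the Fcgr2b-ko minus wild-type difference was 2.94 and within slide 2 it was -2.68.

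The labels do not give the sex of the mice, and the Arg2 levels split along the sex-linked transcripts Ddx3y, from the Y chromosome, and Xist, from the inactive X chromosome. On 6 arrays Ddx3y was well above background and Xist was not, and on the other 10 Xist was and Ddx3y was not. The 6 arrays were wild-type replicates 1 and 2, Fcgr2b-ko replicate 3, Fcgr2b-ko.Sting-ko replicates 2 and 4, and Sting-ko replicate 3. On them Arg2 ran from -2.71 to -2.02, and on the other 10 from -0.77 to 1.003, with no overlap, a gap of 1.25 and a ratio of mean levels of 6.61-fold. This split was noticed in the data and carries no test. Among the 10 arrays with Xist signal the Arg2 means were 0.01 for 2 wild-type, 0.46 for 3 Fcgr2b-ko, 0.66 for 2 Fcgr2b-ko.Sting-ko and 0.12 for 3 Sting-ko kidneys. With the Ddx3y signal as a term in limma, an alternative chosen after the data were seen, the Fcgr2b-ko minus wild-type difference was 0.23 and the Fcgr2b-ko.Sting-ko minus Sting-ko difference turned to 0.30. The genes most like Arg2 over the 16 arrays were Igf2 (Pearson r = 0.99) and Cpb2 (r = 0.97), and the most opposite was Chst11 (r = -0.97). They were looked up after the Arg2 values were seen. Acod1 did not follow this split: it ran from -7.44 to -2.67 on the 6 arrays and from -7.85 to 1.51 on the other 10.

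**Figure D3:**
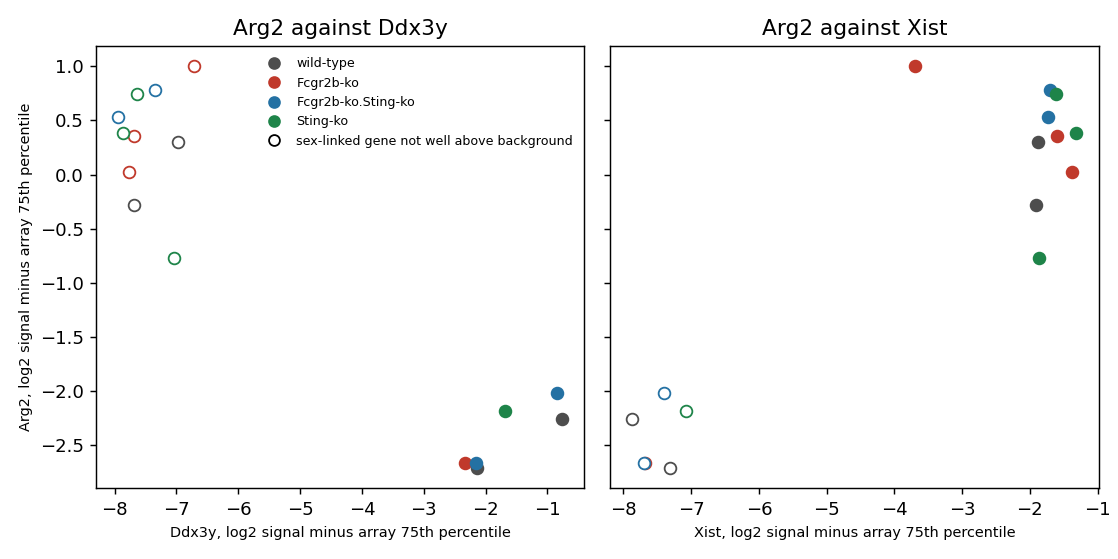
Arg2 signal of every array against Ddx3y (left) and Xist (right), all as log2 relative to each array's 75th percentile, coloured by genotype. Filled points have the sex-linked gene well above background. The 6 arrays with Ddx3y signal have Arg2 between -2.71 and -2.02, and the 10 with Xist signal have it between -0.77 and 1.003.

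Ptgs2 was at the edge of detection, well above background on 6 of the 16 arrays, which came from every genotype. In the wild-type kidneys it was -4.30, -7.41, -6.94 and -6.45, with replicate 1 well above background. In the Fcgr2b-ko kidneys it was -3.00, -6.87, -7.56 and -4.14, with replicates 1 and 4 well above background, the same 2 arrays that had the most Acod1. In the Fcgr2b-ko.Sting-ko kidneys it was -6.36, -4.36, -6.32 and -6.79, with replicate 2 well above background, and in the Sting-ko kidneys -5.23, -5.71, -5.49 and -3.15, with replicates 1 and 4. The groups overlapped throughout. The Fcgr2b-ko minus wild-type difference was 0.88 (SE 0.97, 95% interval -1.17 to 2.94, exact permutation p = 0.514), and the Fcgr2b-ko.Sting-ko minus Sting-ko difference -1.06 (SE 0.97, 95% interval -3.12 to 0.99, exact permutation p = 0.286). These intervals are too wide to leave out a 2-fold difference. Within slide 1 the first of these differences was 1.18 and within slide 2 it was -0.86.

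**Figure D4:**
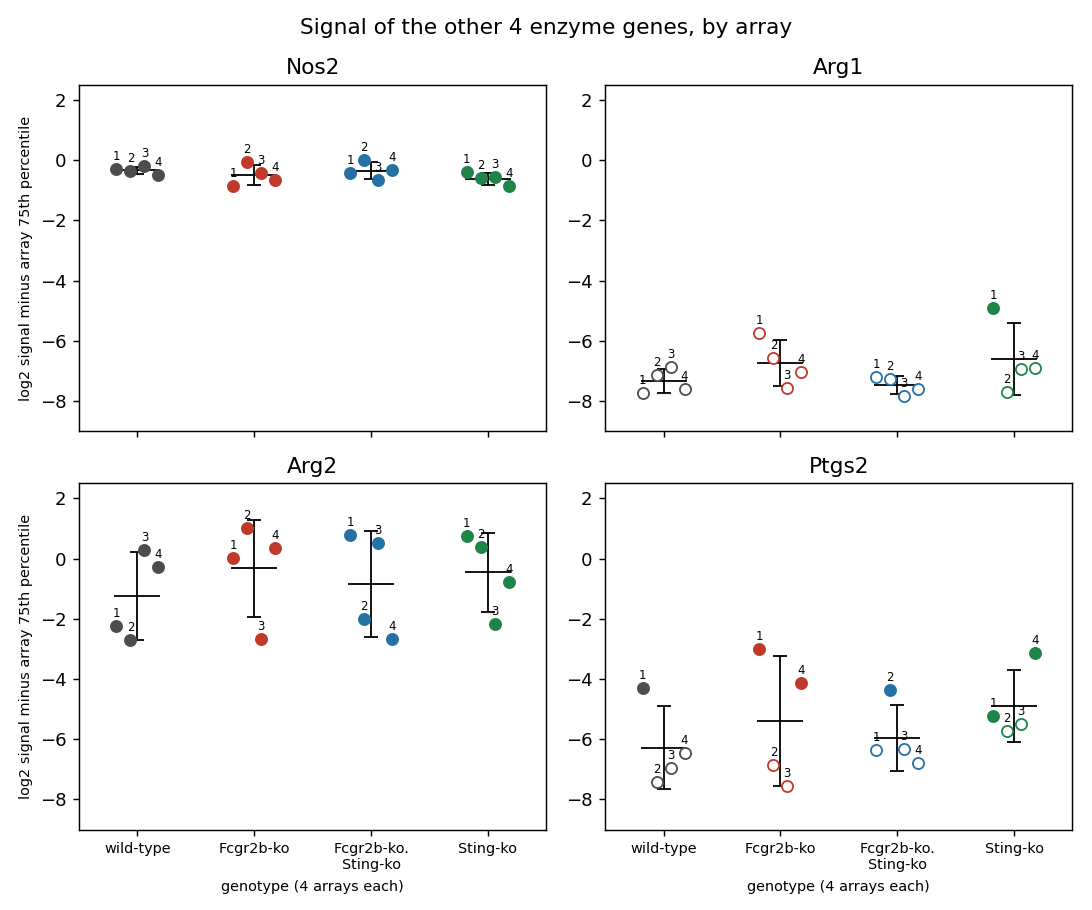
Nos2, Arg1, Arg2 and Ptgs2 signal (log2, relative to each array's 75th percentile) in every array, by genotype, with replicate numbers, on one axis. Filled points are well above background and bars give the mean and SD of 4 arrays. Nos2 is level, Arg1 is filled on 1 array, Arg2 falls into high and low arrays within each genotype, and Ptgs2 is filled on 6 arrays.

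Over all 16 arrays Acod1 had Pearson correlations of -0.17 with Nos2, 0.15 with Arg2 and 0.25 with Ptgs2. With the genotype means removed these were -0.60, 0.07 and 0.68. These are descriptions over 16 arrays that include background readings of Acod1 and Ptgs2 and share 4 genotypes. With the genotype means removed they rest largely on the Fcgr2b-ko arrays. The SD of Acod1 was 2.20 in that group and 0.46 in the wild-type, 0.55 in the double-deficient and 0.61 in the Sting-ko group.

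The genes whose log2 signal was most like that of Acod1 over the 16 arrays were Clec4e (r = 0.97), a macrophage lectin also called Mincle, and Fpr1 (r = 0.97), a receptor for formyl peptides. Next came Cd300e and Treml4, both myeloid receptors (r = 0.94 each), Ear2, Rnase2a and Ear10, ribonucleases of the eosinophil-associated family (r = 0.93 each), Ifi202b (r = 0.93), Clec4d and Il1rn, the interleukin-1 receptor antagonist (r = 0.92 each). Ear2, Rnase2a and Ear10 are close paralogs whose probes may share transcripts. All 10 were higher in both Fcgr2b-deficient groups than in their counterparts, with measured differences from 3.63 to 7.68 against wild-type and from 1.78 to 4.15 against Sting-ko, which likeness to Acod1 selects for. Both upper ends belong to Ifi202b, which was well above background on 0 wild-type and 2 Sting-ko arrays. Fpr1 and Il1rn were so on no array of either group, and Clec4e on no Sting-ko array. These sizes therefore rest on background readings. Most opposite were Apoa2 (r = -0.93), Ppox (r = -0.91) and 3110045C21Rik (r = -0.88), all lower in both Fcgr2b-deficient groups. These likenesses also follow the strain backgrounds, which cannot be told apart from the loss of Fcgr2b. The study places the Ifi200 family, to which Ifi202b belongs, with Fcgr2b in one strain-derived susceptibility interval. With the genotype means removed close ones were Atp2b1 (r = 0.88), Csf2rb (r = 0.88), Fbn2 (r = 0.87) and Pdcd1 (r = 0.87). These r values also rest largely on the Fcgr2b-ko arrays, where Acod1 spread most.

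The genes around itaconate in the mitochondrion gave no call beside Acod1. This list held Acod1 and 15 genes of the tricarboxylic acid cycle, succinate dehydrogenase and neighbouring steps, and all 15 were well above background on every array. None of the 15 was called in any contrast. All 15 had lower means in the Fcgr2b-ko than in the wild-type kidneys, with a list median of -0.52 beside -0.04 for all tested probes, and only Acod1 was higher. The size depended on Fcgr2b-ko replicate 1, whose summed level of the list was 213 times the 75th percentile, against 448 to 783 on the other 3 arrays of its group, and which was also the lowest of the 16 arrays for the summed kidney epithelial markers (885). Without that array, an alternative chosen after the data were seen, 12 of the 16 were lower and the median was -0.09, and with wild-type replicate 1 left out as well 15 of the 16 were lower and the median was -0.21. The Sting-ko kidneys, set against the same wild-type arrays, also had 15 of the 16 lower, with a median of -0.46. Mmut, methylmalonyl-CoA mutase, differed by -0.72 and Suclg2, a subunit of succinyl-CoA ligase, by -0.62. Against the Sting-ko kidneys 15 of the 16, Acod1 included, had higher means in the double-deficient kidneys, with a list median of 0.37 beside -0.0014 for all tested probes. Here Suclg2 differed by 1.16 and Suclg1, another subunit of that ligase, by 0.91. Of the 12 KEAP1-NRF2 genes 10 were tested and none was called in a contrast. Their median was -0.15 in the first and 0.17 in the second of these comparisons, and Hmox1, heme oxygenase-1, differed by 0.40 and 0.49, and Nqo1 by -0.53 and 0.44.

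Genes of arginine supply and use, 23 of 26 tested, gave no call in any contrast. In the Fcgr2b-ko kidneys 6 had a higher and 17 a lower mean than in the wild-type kidneys, with a median of -0.25, which was -0.04 without Fcgr2b-ko replicate 1. Against the same wild-type arrays the Sting-ko kidneys had 5 higher and 18 lower, with a median of -0.31. Gch1, which makes the cofactor of nitric oxide synthases, had the largest difference, 1.15 (SE 0.44, limma adjusted p = 1), and Odc1, the first enzyme of polyamine synthesis, differed by -0.81. In the Fcgr2b-ko.Sting-ko kidneys 17 were higher and 6 lower than in the Sting-ko kidneys, with a median of 0.26. The arginine transporters Slc7a1 and Slc7a2 differed by -0.86 and 0.86, and Ddah1, which degrades an inhibitor of nitric oxide synthases, by 0.72.

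All 20 genes of prostanoid synthesis and reception were tested and none was called. Of the 20, 14 had a higher mean in the Fcgr2b-ko than in the wild-type kidneys, with a median of 0.42, which was 0.14 without Fcgr2b-ko replicate 1. The Sting-ko kidneys gave the same count of 14 against the same wild-type arrays, with a median of 0.43. The prostaglandin E receptor Ptger4 differed by 1.56 between the Fcgr2b-ko and wild-type kidneys. Hpgds, a prostaglandin D synthase, differed by 1.82 and Ptger2, another prostaglandin E receptor, by 1.41, but each was well above background on 1 of the 4 wild-type arrays, so that these sizes rest on background readings. Only 6 of the 20 had a higher mean in the double-deficient than in the Sting-ko kidneys, with a median of -0.23. The genes with the largest differences were Ptgs2 itself, Ptger1 (-0.94) and Tbxa2r, the thromboxane receptor (-0.92).

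Of 24 inducers and regulators of the 5 enzymes, 21 were tested and none was called. In the Fcgr2b-ko kidneys 19 of the 21 had a higher mean than in the wild-type kidneys, with a median of 0.66, and 5 had an unadjusted p below 0.05 in limma, beside 3.3% of all tested probes. The median was 0.38 without Fcgr2b-ko replicate 1. Il1b, interleukin-1 beta, differed by 3.22 (SE 0.82, limma adjusted p = 0.576), Tlr2 by 1.95 and the stress-induced factor Atf3 by 1.60. The Sting-ko kidneys had 15 of the 21 higher than the same wild-type arrays, with a median of 0.23. In the Fcgr2b-ko.Sting-ko kidneys 9 of the 21 were higher than in the Sting-ko kidneys, with a median of -0.13, and none had an unadjusted p below 0.05. Il1b differed by 0.94 there. Il6, Ifnb1 and Il4 were well above background on fewer than 4 arrays. Of 8 markers of alternative activation, the list to which Arg1 is commonly joined, 7 were tested and none was called. Between the Fcgr2b-ko and wild-type kidneys 6 of the 7 were higher, with a median of 0.62, and 4 were higher without Fcgr2b-ko replicate 1, with a median of 0.09. Between the Fcgr2b-ko.Sting-ko and Sting-ko kidneys 3 of the 7 were higher, with a median of -0.11. Chil3 differed by 3.15 in the first and 1.03 in the second of these comparisons, and Mrc1, the mannose receptor, by 2.69 and -0.23. Clec10a differed by 0.54 and -1.60, and Retnla by 0.62 and -2.30, with Retnla well above background on 1 of the 4 double-deficient arrays.

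The arrays also differed in monocyte and macrophage markers, and in bulk tissue fewer cells of a type and less RNA per cell cannot be told apart. All 12 markers of that list, among them Adgre1, Cd68 and Lyz2, were well above background on every array, and none was called. Their median difference was 2.05 between the Fcgr2b-ko and wild-type kidneys, where 10 of 12 were higher and 8 had an unadjusted p below 0.05, beside the 3.3% of all tested probes. Without Fcgr2b-ko replicate 1 this median was 1.37. The lower markers were Itgam (-0.30) and Ly6c2 (-0.20). Against the same wild-type arrays the Sting-ko kidneys also had 10 of 12 higher, with a median of 0.36 and none at an unadjusted p below 0.05. The median was 0.06 between the Fcgr2b-ko.Sting-ko and Sting-ko kidneys, where 6 of 12 were higher, 1 had an unadjusted p below 0.05 (3.07% of all tested probes), and Lyz2, which encodes lysozyme, differed by 1.74. Lower in that comparison were Itgam (-0.92), Ccr2 (-0.43), Fcgr4 (-0.42), Csf1r (-0.09), Cd14 (-0.08) and Cx3cr1 (-0.03). The mean log2 level of the list was 3.52 and 3.15 on Fcgr2b-ko replicates 1 and 4, the brightest arrays for Acod1, and 1.20 and 1.24 on replicates 2 and 3. It was 0.90, 1.92, 0.91 and 0.63 on the double-deficient arrays, 1.82, 0.01, 0.16 and 0.52 on the wild-type arrays, and 1.78, 0.66, 0.72 and 0.60 on the Sting-ko arrays. Acod1 was thus not well above background on wild-type replicate 1 and Sting-ko replicate 1, where this level was higher than on 3 of the 4 double-deficient arrays and on Fcgr2b-ko replicates 2 and 3. These 2 arrays and Fcgr2b-ko replicate 1 also stood apart in 5 adipocyte markers, with mean log2 levels of 1.81, 0.59 and 1.22 against -2.24 to -0.30 on the other 13 arrays, and wild-type replicate 1 had the highest mean level of the B and plasma cell markers (0.24). Without replicate 1 of the wild-type, Fcgr2b-ko and Sting-ko groups, 11 of the 12 macrophage markers were higher in the Fcgr2b-ko than in the wild-type kidneys (median 1.94), and 10 of 12 were higher in the double-deficient than in the Sting-ko kidneys (median 0.29). The 5 arrays with the highest level of the list were 5 of the 6 on which Ptgs2 was well above background. The summed level of the list, dominated by its brightest genes, ran from 162 to 271 times the 75th percentile on the Fcgr2b-ko arrays, from 128 to 299.7 on the wild-type, from 121 to 321 on the double-deficient and from 129 to 257 on the Sting-ko arrays. The part of these cells in the Acod1 signal was not tested.

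**Figure D5:**
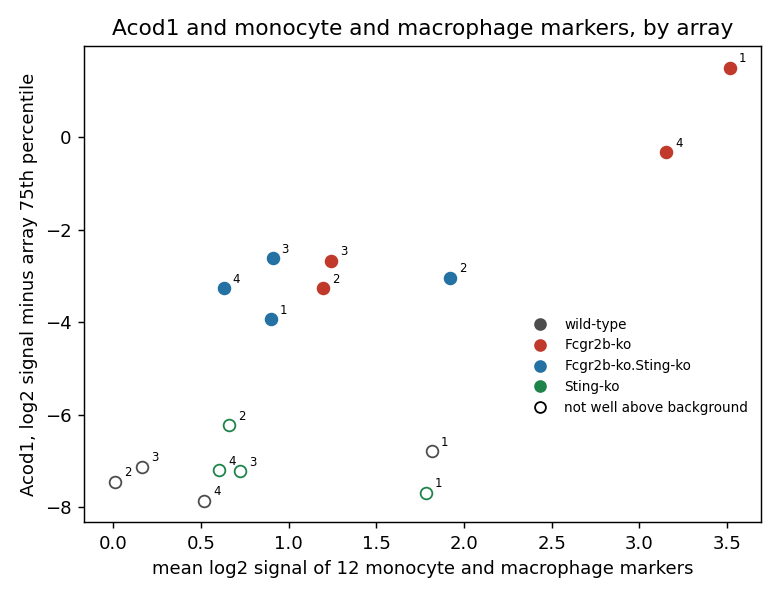
Acod1 signal of every array against the mean log2 signal of 12 monocyte and macrophage markers, both relative to each array's 75th percentile, coloured by genotype with replicate numbers. Filled points have Acod1 well above background. Fcgr2b-ko replicates 1 and 4 are highest on both axes, and wild-type replicate 1 and Sting-ko replicate 1 have marker levels of 1.82 and 1.78 with Acod1 not well above background.

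Neutrophils also make Acod1 when activated. Of 13 neutrophil markers 9 were tested and none was called, with a median of 0.73 between the Fcgr2b-ko and wild-type kidneys and of 0.40 between the Fcgr2b-ko.Sting-ko and Sting-ko kidneys. In the first comparison 8 of the 9 were higher and 1 lower, and in the second 6 were higher and 3 lower. S100a8 and S100a9 differed by 1.48 and 1.36 in the first, and by 1.13 and 0.89 in the second. Lower were Elane (-0.34) in the first, and Csf3r (-0.42), Ltf (-0.14) and Mpo (-0.08) in the second. Cxcr2, Ngp and Mmp9 were well above background on fewer than 4 arrays, and Ly6g, a defining neutrophil marker, was not analysed here. The mean log2 level of the list ran from -2.54 to -0.56 in the Fcgr2b-ko, from -2.72 to -1.24 in the wild-type, from -2.11 to -1.69 in the double-deficient and from -2.82 to -1.98 in the Sting-ko kidneys. Its summed level, dominated by Csf3r, ran from 28.5 to 61.0, from 29.0 to 45.5, from 29.4 to 50.8 and from 35.3 to 112 times the 75th percentile in the same order. T cell markers (6 of 6 tested) had median differences of 0.65 and -0.32 in the same 2 comparisons and kidney epithelial markers (12 of 12) of -0.21 and 0.03, with no call. The medians were -0.37 and -0.71 for adipocyte markers (5 of 5 tested), 0.15 and -0.11 for B and plasma cell markers (4 of 6), -0.25 and -0.47 for red cell markers (5 of 6) and -0.01 and 0.29 for adrenal markers (3 of 5), again with no call. The parts of these cells in the Acod1 signal were likewise not tested.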

How the data were processed

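The authors hybridised Cy3-labelled RNA of whole kidneys to Agilent one-colour mouse arrays and deposited the scanner files of Agilent Feature Extraction 11.0, per the labels. These give background-corrected signal intensity per spot, together with a table of log2 values that the authors had normalised. The deposited intensity (processed signal) was used in the main analysis and the authors' log2 table as an alternative.

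Here spots flagged as outliers and control spots were left out, spots of a probe were averaged, and log2 intensity minus the array's 75th percentile was taken. Of 56605 probes, 35628 were well above background on at least 4 of 16 arrays and were tested with limma 3.58.1 in R 4.3.3, fitting the 4 genotype means to the 16 arrays together, with Benjamini-Hochberg adjustment over all tested probes. Calls needed an adjusted p below 0.05 and at least 2-fold. Single values were tested with the two-sided exact permutation test of the arrays. Accessions were named through RefSeq (GRCm38.p6), which gave 32994 probes 22911 symbols. The array design uses build mm9, and no coordinate was carried between builds.

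The limma step was checked on simulated data with the same spread in every genotype, a setting that the Acod1 values do not meet. The 5 genes, the 14 gene lists and the tests were chosen with earlier results of these data known. Named genes were the members, up to 3 genes of a list with the largest difference in each of the 2 comparisons for loss of Fcgr2b, the 10 genes most correlated with Acod1 and the 5 so after genotype means were removed (1 of them is not reported here), and of several probes for a gene the brightest. Alternatives changed the background correction (normexp, offset 50, on the median spot signal), scaling, filter, model, slide or replicate block and test (the Mann-Whitney test named in the study's methods), and left out each array in turn.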

Additional observations from a re-analysis of the deposited data

Results flagged for a closer look

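Of 164 groups of 4 arrays checked over 44 genes named in the report, 9 (5.49%) had 1 array far from the other 3. The cut-off is nominally passed by about 1 in 20 groups of normally distributed values, a rate not checked on these arrays. None of the 9 was a member. Wild-type replicate 1 was the array in 4 of them, highest for Hpgds (-4.79, next -6.82), Ptger2 (-4.86, next -7.02), Il1b (-0.56, next -3.05) and S100a9 (2.22, next -0.22). It was also the only wild-type array with Ptgs2 well above background. Fcgr2b-ko.Sting-ko replicate 4 was lowest for Ear10 (-3.09, next -2.40) and highest for Hmox1 (2.54, next 1.39). Fcgr2b-ko.Sting-ko replicate 2 was lowest for Suclg2 (1.66, next 2.80) and highest for Mrc1 (-0.65, next -2.74). Sting-ko replicate 1 was highest for Tlr2 (-0.38, next -1.47).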

How the results depend on the processing

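Of 523 differences of the 4 tested genes over the alternatives, 8 turned direction. The Acod1 difference between the Fcgr2b-ko and wild-type kidneys was 2.68 with the normexp correction (log2, adjusted p = 0.235), and no member was called there. The number of members called in that comparison, 1 in the main analysis, was 0 with normexp, with only the groups compared, with the adjusted Mann-Whitney test and with the filter on all 16 arrays, which removes Acod1, and it ran from 0 to 1 when single arrays were left out: it was 0 without Fcgr2b-ko replicate 4 or wild-type replicate 2, 3 or 4. Between the Fcgr2b-ko.Sting-ko and Sting-ko kidneys Acod1 was called, and the count was 1, with only the groups compared (3.87, adjusted p = 0.0385). The same held with the unadjusted Mann-Whitney test (3.87, p = 0.0286, exact). The adjusted p of Acod1 there ran from 0.0385 to 1 over the alternatives. No conclusion is drawn from these calls, as Acod1 was selected with results of these data known and its Sting-ko readings were background.

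The Arg2 difference turned to 0.16 (Fcgr2b-ko.Sting-ko minus Fcgr2b-ko), 0.30 (Fcgr2b-ko.Sting-ko minus Sting-ko) and 0.068 (interaction) with the Ddx3y term. Leaving out single arrays, the first ran from -1.30 to 0.0855 and the second from -0.96 to 0.22, and the Ptgs2 difference of Fcgr2b-ko.Sting-ko minus Fcgr2b-ko from -1.29 to 0.23. The causes were not tested.

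Replicate numbers were not taken as pairs. Correlations of same-numbered arrays ran from -0.60 to 0.69 (median -0.06), with 11 of 24 pairs above 0.1. The median for arrays of different numbers was -0.03. These values do not exclude that some same-numbered arrays share structure. With the replicate number as a block, the Acod1 difference between Fcgr2b-ko.Sting-ko and Sting-ko kidneys was 3.87 (adjusted p = 0.83) and was not called, and the counts of members called did not move. The median over the probes of a gene was not run, as each member has 1 probe. Signals near background limit Acod1 in 2 groups, Arg1 and Ptgs2.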
